A study of Mus musculus with 6 samples.

Results

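The PDLIM and FHL genes encode LIM-domain proteins of the actin cytoskeleton, and 9 of them were followed here: *Pdlim1*, *Pdlim2*, *Pdlim3*, *Pdlim4*, *Pdlim5*, *Pdlim7*, *Fhl1*, *Fhl2* and *Fhl3*. They were taken by gene symbol from 56748 Ensembl genes in the deposited count table. All 9 passed the filter on low counts, together with 18188 genes in all. The set was not blind to the data: it was selected on gene family, with the log2 fold changes and calls of LiCl against control already known. The values of this comparison are therefore a description of the set and not a test of it. The count table covers ureters of wildtype NMRI mouse embryos at E12.5. After dissection these were kept on membranes for 18 h, either with 15 mM LiCl or with water as control, with 3 samples per group. LiCl inhibits the kinase GSK3B and thereby activates *Ctnnb1*-dependent WNT signaling, but it affects other enzymes as well. The question behind the experiment was which genes change when WNT signaling is activated ectopically in the early ureter. The labels do not say how many ureters or litters went into a sample, so p-values measure the spread between these samples. Each sample held the whole ureter, that is epithelium and mesenchyme together.

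LIM domains are zinc-binding folds that serve as docking sites for other proteins. PDLIM proteins join a PDZ domain, which binds alpha-actinin, to LIM domains at the other end, and in this way attach kinases and other regulators to stress fibres and, in striated muscle, to the Z-line. FHL proteins consist of LIM domains only. They are found at focal adhesions and stress fibres, but also in the nucleus, where they act as cofactors of transcription. In the ureter, the inner mesenchyme later turns into smooth muscle, a tissue in which several of these genes are strongly expressed.

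The total count lay between 28473436 and 31266945 per sample, and both groups overlapped in depth. Of 8 WNT feedback genes, 7 rose and 0 fell in the quasi-likelihood test of edgeR (adjusted p under 0.05). Over all tested genes 21.1% rose and 22.4% fell, which is also the comparison for the counts of markers below. The 8 genes had a median log2 fold change of 0.76, against -0.01 over all tested genes. *Axin2*, a direct target and inhibitor of the pathway, rose from 71.8 ± 2.68 to 136 ± 2.03 CPM (each SD, n = 3; CPM, read counts scaled to library size by TMM) (edgeR, adjusted p = 1.4e-06). Markers of ureteric mesenchyme and epithelium were present in all samples. Of 7 mesenchymal markers, 5 fell and 0 rose, with a summed level of 5710 to 6400 CPM in the control and 3900 to 4420 CPM with LiCl. Of 7 epithelial markers, 6 fell and 1 rose, with 1080 to 1370 CPM and 796 to 831 CPM, respectively. The summed level of 6 endothelial markers was 486 to 610 CPM and 439 to 542 CPM, and 1 fell and 0 rose. That of 6 macrophage markers was 62.8 to 104 CPM and 56.3 to 77.5 CPM, and 2 fell and 1 rose. That of 6 glial and neuronal markers was 139 to 163 CPM and 113 to 160 CPM, and 0 fell and 0 rose. The mesenchymal sum mostly followed 2 collagen genes, *Col1a1* and *Col3a1*, with 2610 ± 178 and 1870 ± 73.8 CPM in the control (each SD, n = 3). The mesenchymal markers *Foxf1* and *Osr1* did not pass the test, with log2 fold changes of 0.08 and -0.07. Skeletal muscle markers stood apart in LiCl replicates 1 and 3. Their sum over 22 genes was 56.3 and 118 CPM there, against 17.2 CPM in LiCl replicate 2 and 19.5 to 22.7 CPM in the controls. Since each sample is a mixture of tissues, fewer cells of a type and less RNA per cell cannot be told apart for any gene below.

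Among the 9 genes, *Pdlim1* and *Pdlim4* were higher after LiCl, by 3.65-fold and 2.71-fold. *Pdlim2* and *Pdlim5* were lower, at 59.3% and 76.4% of the control. *Pdlim3*, *Pdlim7* and the 3 FHL genes did not pass the test in either direction. Requiring a log2 fold change beyond 1 or -1 besides an adjusted p under 0.05, as the study did, 2 of the 9 genes were called higher and 0 lower. Over all tested genes these shares were 2.74% (498 genes) and 4.59% (835 genes). With limma, another test, run on 15943 genes, the numbers were 177 and 141 on log2(FPKM + 1) and 347 and 430 on log2(FPKM + 0.1). Without filter, on 32775 genes, they were 171 and 139 on log2(FPKM + 1). The cause of the smaller numbers was not tested. Without the minimum of the fold change, 2 were higher and 2 lower, against 21.1% and 22.4% of all tested genes. The median log2 fold change of the 9 genes was -0.04, and that of all tested genes -0.01. The LiCl samples were all above the controls in 2 of the 9 genes and all below them in 3, against 26.4% and 27.8% of all tested genes. Those below were *Pdlim2*, *Pdlim5* and *Fhl1*. *Fhl1* was separated only beyond the digits given, with 42.6 CPM in both LiCl replicate 1 and control replicate 1. Nothing is read from these shares, because the same comparison was known when the genes were chosen.

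**Figure D1:**
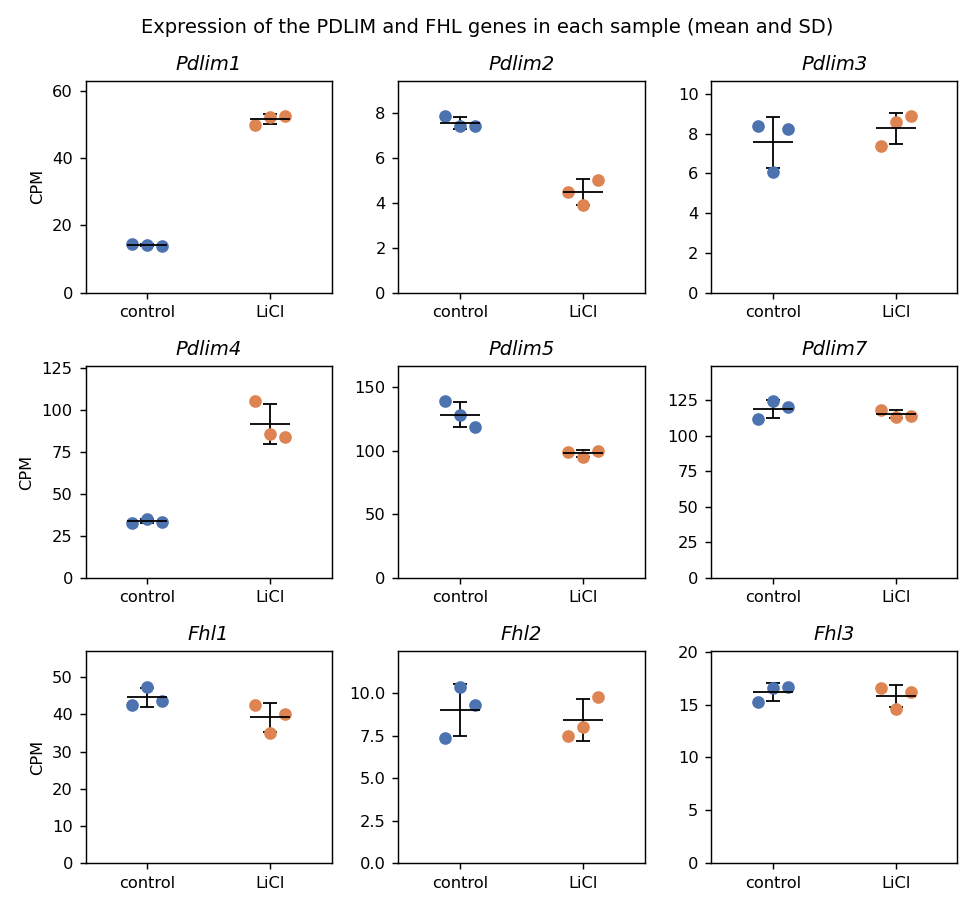
Expression of each PDLIM and FHL gene in CPM (vertical axis, from 0) in the 3 control samples (blue) and the 3 LiCl samples (orange), with the mean as a horizontal line and the SD as the error bar. In *Pdlim1* and *Pdlim4* all LiCl samples lie far above all controls, in *Pdlim2* and *Pdlim5* they lie below them, and in *Pdlim3*, *Pdlim7*, *Fhl2* and *Fhl3* the groups overlap.

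*Pdlim1* (ENSMUSG00000055044), also known as CLP36 or Elfin, encodes an adaptor that binds alpha-actinin and the kinase STK35 at stress fibres. It had 14.6, 14.1 and 13.8 CPM in control replicates 1 to 3 and 50, 52.4 and 52.5 CPM in LiCl replicates 1 to 3. The groups were widely separated, and within each group the samples differed little, with a coefficient of variation of 2.75% in the control and 2.76% with LiCl. In raw counts this was 419 to 437 against 1464 to 1554. The log2 fold change was 1.87 (standard error, SE, 0.06), which ranked 109 from the top among the 18188 tested genes.

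*Pdlim4* (ENSMUSG00000020388), also known as RIL, encodes a PDZ-LIM protein that binds alpha-actinin, the phosphatase PTPN13 and SRC. It had 32.6, 35.2 and 33.5 CPM in the controls and 105, 85.7 and 83.7 CPM with LiCl. All LiCl samples were above all controls, and LiCl replicate 1 was above the other LiCl samples. The log2 fold change was 1.44 (SE 0.09), at rank 224 from the top. Without LiCl replicate 1 it was 1.33, so this sample did not carry the difference.

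*Pdlim2* (ENSMUSG00000022090), also known as mystique or SLIM, encodes an adaptor for ubiquitin ligation that promotes the degradation of STAT4 and of the NF-kB subunit RELA. It had 7.86, 7.41 and 7.41 CPM in the controls and 4.50, 3.90 and 5.04 CPM with LiCl, so the groups did not overlap. The log2 fold change was -0.75 (SE 0.13). It is a low gene, with 109 to 142 counts per LiCl sample. Its log2 fold change was -0.42 with limma on log2(FPKM + 1), where the pseudocount shrinks the change of low genes, and -0.94 when LiCl replicates 1 and 3, the samples with skeletal muscle transcripts, were left out together.

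*Pdlim5* (ENSMUSG00000028273), also known as ENH, encodes a scaffold that ties protein kinases C and D to the Z-line and holds ID2 in the cytoplasm. It had 139, 128 and 119 CPM in the controls and 98.9, 95.1 and 100 CPM with LiCl. All LiCl samples were below all controls, and the controls were spread more widely than the LiCl samples. The log2 fold change was -0.39 (SE 0.06). Without control replicate 1, the highest control, it was -0.33.

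*Pdlim7* (ENSMUSG00000021493), also known as Enigma, encodes a PDZ-LIM protein that binds the receptors RET and INSR and the transcription factor TBX5. It had 112, 124 and 120 CPM in the controls and 118, 113 and 114 CPM with LiCl. The LiCl samples lay within the range of the controls, with a log2 fold change of -0.04 (SE 0.05). *Pdlim3* (ENSMUSG00000031636), also known as ALP, encodes a protein of the Z-line and of intercalated discs that is typical of muscle. It was low, with 8.38, 6.09 and 8.22 CPM in the controls and 7.40, 8.56 and 8.87 CPM with LiCl, and a log2 fold change of 0.13 (SE 0.14). Control replicate 2 was the lowest of the 6 samples, and without it the log2 fold change was 0.00.

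The FHL genes differed less between the groups than *Pdlim1* and *Pdlim4* did. *Fhl1* (ENSMUSG00000023092), which is most abundant in skeletal muscle and heart, had 42.6, 47.5 and 43.7 CPM in the controls and 42.6, 34.9 and 40.2 CPM with LiCl. LiCl replicate 1 and control replicate 1 had the same value to the digits given, and the log2 fold change was -0.18 (SE 0.08). In FPKM, the deposited values per gene length, LiCl replicate 1 was within the controls. *Fhl1* was called lower when LiCl replicate 1 was left out, at -0.25, and when LiCl replicates 1 and 3 were left out, at -0.35. These are the samples with the high sums of skeletal muscle markers given above, and both had more *Fhl1* than LiCl replicate 2. Between them the order was reversed, since LiCl replicate 3 had the higher sum (118 against 56.3 CPM) but less *Fhl1*. The controls, with sums of 19.5 to 22.7 CPM, had as much *Fhl1* as LiCl replicate 1 or more. The part of muscle cells in this was not tested.

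*Fhl2* (ENSMUSG00000008136) encodes a cofactor of several transcription factors that also binds CTNNB1. It had 7.34, 10.4 and 9.30 CPM in the controls and 7.47, 8.02 and 9.79 CPM with LiCl. The groups overlapped fully, and its coefficient of variation was the highest of the 9 genes in either group, with 17.1% and 14.4%. The log2 fold change was -0.10 (SE 0.15). *Fhl3* (ENSMUSG00000032643), a further actin-binding cofactor, had 15.2, 16.6 and 16.7 CPM in the controls and 16.6, 14.6 and 16.2 CPM with LiCl, and a log2 fold change of -0.03 (SE 0.08). The groups overlapped here, too.

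**Figure D2:**
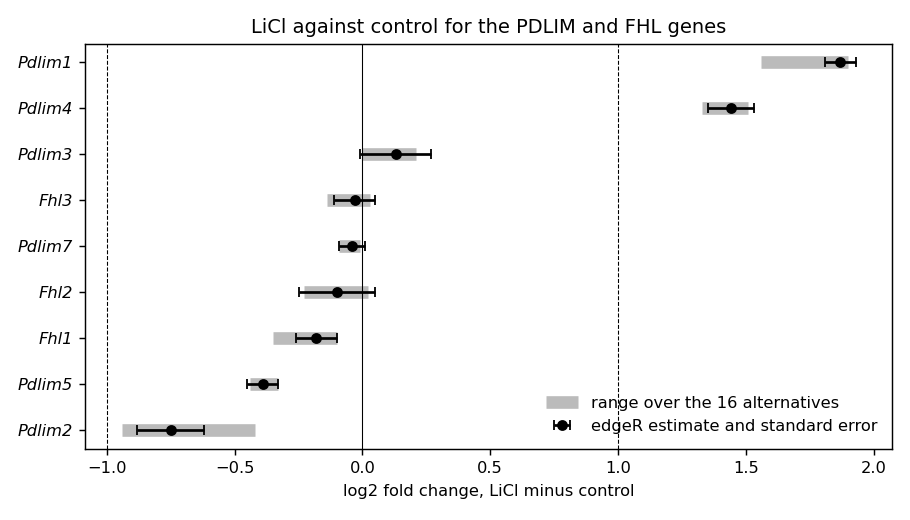
Log2 fold change of LiCl against control (horizontal axis) for each PDLIM and FHL gene, with the edgeR estimate and its standard error in black and the range over 16 alternative settings in grey, while dashed lines mark 1 and -1. *Pdlim1* (1.56 to 1.90) and *Pdlim4* (1.33 to 1.51) stayed above 1 in all of these settings, and *Pdlim2* (-0.94 to -0.42) and *Pdlim5* (-0.44 to -0.33) stayed between -1 and 0.

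For the order of the levels, FPKM were compared, since CPM depend on the length of a gene. In the control, *Pdlim7* was the highest with 24.2 ± 1.42 FPKM (SD, n = 3). *Pdlim5*, *Pdlim4* and *Fhl1* followed with 14.3 ± 1.04, 13.0 ± 0.59 and 11.9 ± 0.75 FPKM (each SD, n = 3). Neighbours in this group of 3 overlapped in their ranges, so their order is not resolved. *Fhl3* with 9.51 ± 0.57, *Fhl2* with 4.70 ± 0.83, *Pdlim1* with 2.66 ± 0.06 and *Pdlim2* with 1.67 ± 0.05 FPKM (each SD, n = 3) came next without overlap, and *Pdlim3* was the lowest with 1.45 ± 0.24 FPKM (SD, n = 3).

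With LiCl, *Pdlim4* was the highest with 35.8 ± 4.60 FPKM (SD, n = 3), above *Pdlim7* with 23.8 ± 0.56 FPKM (SD, n = 3). *Pdlim1*, with 9.83 ± 0.28 FPKM (SD, n = 3), had moved up to the range of *Pdlim5*, *Fhl1* and *Fhl3*, which had 11.1 ± 0.31, 10.6 ± 1.07 and 9.41 ± 0.66 FPKM (each SD, n = 3). The ranges of *Fhl1* and *Pdlim1* overlapped, as did those of *Pdlim1* and *Fhl3* and those of *Pdlim5* and *Fhl1*. *Fhl2* followed with 4.45 ± 0.65 FPKM, then *Pdlim3* with 1.61 ± 0.15 FPKM, and *Pdlim2* was now the lowest with 1.00 ± 0.13 FPKM (each SD, n = 3).

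The composition of the PDLIM group differed accordingly. Added up, the 6 genes had 56.5, 58.9 and 56.6 FPKM in the controls and 88.5, 79.9 and 80.7 FPKM with LiCl. *Pdlim4* made up 22.7 ± 0.56% of this sum in the control and 43.0 ± 3.01% with LiCl, and *Pdlim1* 4.64 ± 0.15% and 11.9 ± 0.98% (each SD, n = 3). *Pdlim7*, with nearly the same FPKM in both groups, went from 42.2 ± 1.88% to 28.7 ± 0.99%, and *Pdlim5* from 24.9 ± 1.94% to 13.3 ± 0.71% (each SD, n = 3). The ratio of *Pdlim4* to *Pdlim7* in FPKM was 0.552, 0.538 and 0.527 in the controls and 1.69, 1.44 and 1.39 with LiCl. In the FHL group, the sum was 23.9 to 28.0 FPKM in the control and 22.3 to 25.7 FPKM with LiCl, and the shares were alike: *Fhl1* had 45.6 ± 1.46% and 43.2 ± 1.84%, *Fhl3* 36.5 ± 1.21% and 38.6 ± 0.78%, and *Fhl2* 17.9 ± 1.83% and 18.2 ± 2.37% (each SD, n = 3).

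**Figure D3:**
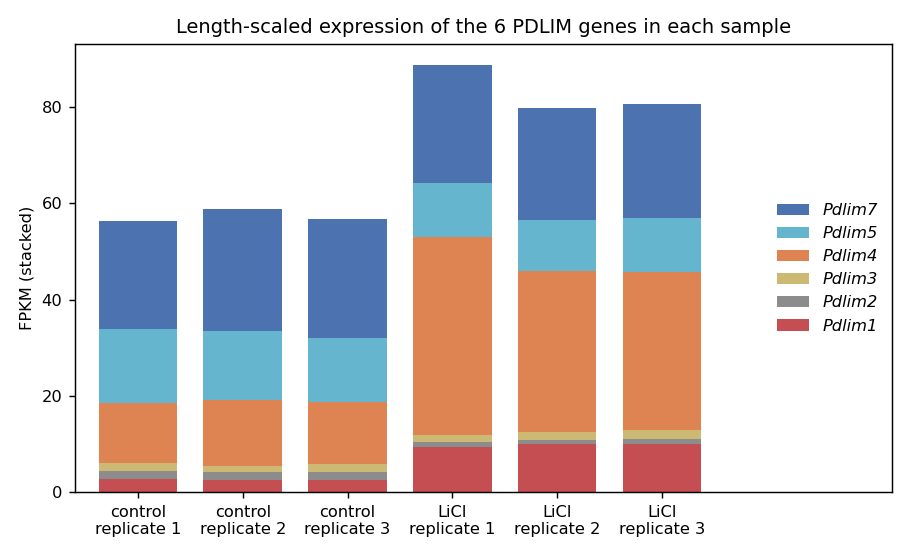
FPKM of the 6 PDLIM genes stacked for each of the 6 samples (vertical axis, from 0). The sum is 56.5 to 58.9 FPKM in the controls and 79.9 to 88.5 FPKM with LiCl, and the *Pdlim4* (orange) and *Pdlim1* (red) segments are larger in every LiCl sample than in every control.

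The 3 family members outside the set were at or near the limit of detection. *Ldb3*, which encodes the muscle PDZ-LIM protein ZASP or Cypher, had 12 to 20 counts in the controls and 29, 12 and 27 counts in LiCl replicates 1 to 3, so that it was highest in the same samples as the skeletal muscle markers. Its log2 fold change was 0.52 (SE 0.37; edgeR, adjusted p = 0.29), and -0.32 when LiCl replicates 1 and 3 were left out. *Fhl4* had 22 to 30 counts in the controls and 15 to 18 with LiCl, and a log2 fold change of -0.56 (SE 0.26; edgeR, adjusted p = 0.12). *Fhl5* had 0 counts in all 6 samples.

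Promoter windows were looked at because *Pdlim1* and *Pdlim4* moved together while the FHL genes, some of which are known targets of the transcription factor SRF, did not. RefSeq windows of 300 bases, from 250 before to 50 after a transcription start, were found for 8 of the 9 genes, *Pdlim2* excepted, in 11 windows on GRCm38.p6, an older build than that of the counts. They were searched on both strands for CTTTGAT, the core that TCF/LEF factors bind, for GGAATG, bound by TEAD factors, and for the CArG box, bound by SRF. The windows of *Pdlim1* and *Pdlim4* and of the FHL genes with a CArG box are shown 5′ to 3′, with the CArG box in capitals.
Pdlim1 (chr19:40271567-40271866, minus strand): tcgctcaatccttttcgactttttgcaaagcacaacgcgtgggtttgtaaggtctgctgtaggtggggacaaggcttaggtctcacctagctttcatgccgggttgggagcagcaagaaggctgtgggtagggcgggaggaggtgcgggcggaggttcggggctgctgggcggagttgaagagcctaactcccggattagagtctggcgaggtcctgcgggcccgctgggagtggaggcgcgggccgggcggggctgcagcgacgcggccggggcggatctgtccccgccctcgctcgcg
Pdlim4 (chr11:54068968-54069267, minus strand): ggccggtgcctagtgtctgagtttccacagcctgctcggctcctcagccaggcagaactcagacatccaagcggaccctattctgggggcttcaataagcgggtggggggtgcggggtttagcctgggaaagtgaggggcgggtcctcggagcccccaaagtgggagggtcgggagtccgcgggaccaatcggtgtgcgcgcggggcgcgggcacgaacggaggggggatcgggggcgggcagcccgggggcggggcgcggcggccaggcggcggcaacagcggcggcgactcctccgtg
Fhl2 (chr1:43163912-43164211, minus strand): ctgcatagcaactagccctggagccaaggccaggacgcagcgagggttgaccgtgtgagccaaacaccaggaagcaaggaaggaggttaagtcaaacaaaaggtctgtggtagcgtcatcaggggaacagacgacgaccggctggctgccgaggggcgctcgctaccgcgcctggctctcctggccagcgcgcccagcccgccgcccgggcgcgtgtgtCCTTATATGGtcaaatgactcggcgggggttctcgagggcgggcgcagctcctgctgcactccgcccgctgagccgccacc
Fhl1 (chrX:56779433-56779732, plus strand): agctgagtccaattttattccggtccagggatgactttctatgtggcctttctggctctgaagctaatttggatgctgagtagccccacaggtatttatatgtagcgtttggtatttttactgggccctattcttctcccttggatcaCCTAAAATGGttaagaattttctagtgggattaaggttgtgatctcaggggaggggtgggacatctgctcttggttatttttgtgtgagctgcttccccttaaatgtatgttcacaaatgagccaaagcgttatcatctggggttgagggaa
No window of the 8 genes held CTTTGAT, which was found in 3.73% of all 32851 windows. GGAATG or its reverse complement was found in 2 places in *Pdlim3* and in no other of these genes, against 14.7% of all windows. A CArG box was found in *Fhl1*, from position -102 to -93 relative to the start (counted as 0), and in *Fhl2*, from -31 to -22 in the window shown and from -96 to -87 in that of a further start. The further *Fhl1* window held no CArG box. Over all windows the share was 1.63%, counted per window and not per gene. With only 11 windows of the 8 genes, no share is compared, and nothing is read from the CArG matches. No match overlapped a match of another motif. The *Pdlim1* and *Pdlim4* windows were rich in G and C, with 65.7% and 71.7% against a median of 52.7% over all windows. *Pdlim7* and *Fhl3*, whose expression differed little, had 69.7% and 74.0%. *Pdlim5*, which was lower with LiCl, had 64.7% and 33.3% in its windows. For *Fhl2* the values were 66.0% in the window shown and 51.3% in the further one. *Pdlim3* had 59.7%, and *Fhl1* had 44.0% and 49.3%. A relation of base composition to expression was not tested. The motif matches are matches of letters in a short window, and binding of a factor was not measured. At a share of 3.73%, no match to the TCF/LEF core in only 11 windows was the likely outcome. Its absence therefore cannot decide whether *Pdlim1* and *Pdlim4* have sites for these factors, and nothing is read from it.

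The genes around the PDLIM and FHL genes were described with lists written from general knowledge, and all calls on them are from the same fit over all genes at an adjusted p under 0.05. Of 38 other LIM genes of the cytoskeleton, 36 were tested, and 4 rose, 14 fell and 18 did not pass, with a median log2 fold change of -0.14. This, like the counts of the lists below, compares with 21.1% higher and 22.4% lower over all tested genes. Among the called genes, the strongest increases were those of *Crip1* and *Crip2*, small LIM proteins, with log2 fold changes of 1.95 (SE 0.17; edgeR, adjusted p = 3.1e-05) and 0.79 (SE 0.07; edgeR, adjusted p = 4.3e-05), followed by *Mical2*, an actin-oxidizing enzyme, with 0.32. *Crip1* rose from 2.09 ± 0.39 to 8.11 ± 1.07 CPM (each SD, n = 3). The strongest decreases were those of *Lims2*, *Lpxn* and *Micall2*, with log2 fold changes of -1.55, -0.81 and -0.55. *Lims2*, a partner of integrin-linked kinase, and *Lpxn*, a relative of paxillin, were low, with 1.42 ± 0.21 and 2.45 ± 0.93 CPM in the control (each SD, n = 3). Of the 16 alternatives, the call of *Lpxn* was lost in 9 (adjusted p = 0.058 to 0.32), among them the fits without control replicate 3, where its log2 fold change was -0.45, and without each of the LiCl samples in turn. The call of *Mical2* was lost in 4, the fits of limma and that without LiCl replicates 1 and 3 (adjusted p = 0.058 to 0.15). *Lims2* was -0.91 and not called without LiCl replicates 1 and 3. The number of lower genes in this list was 8 instead of 14 when LiCl replicates 1 and 3 were left out, a fit with fewer samples.

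Alpha-actinin is the common anchor of the PDLIM proteins. *Actn1* and *Actn4*, which encode the non-muscle forms, had 148 ± 6.12 and 327 ± 4.98 CPM in the control and 144 ± 4.34 and 309 ± 10.1 CPM with LiCl (each SD, n = 3), and did not pass the test. *Actn3* fell by 0.69 on the log2 scale (SE 0.12; edgeR, adjusted p = 0.0015), from 7.12 ± 0.23 to 4.40 ± 0.43 CPM (each SD, n = 3). *Actn3* is known from fast skeletal muscle, but its 4.12, 4.19 and 4.90 CPM in LiCl replicates 1 to 3 were all below the controls and did not follow the skeletal muscle markers. *Actn2*, a form of heart and skeletal muscle, had 5.08, 0.967 and 7.27 CPM in LiCl replicates 1 to 3 and 0.383 to 0.685 CPM in the controls, in parallel with the skeletal muscle markers. Its log2 fold change was 2.92, and 0.73 with no call when LiCl replicates 1 and 3 were left out. Of 23 genes of alpha-actinins and the actin filament scaffold, 21 were tested, and 2 rose, 9 fell and 10 did not pass, with a median of -0.19. The risers were *Actn2* and *Palld*, an actin-bundling protein, which went from 348 ± 11.9 to 446 ± 16.4 CPM (each SD, n = 3), a log2 fold change of 0.36. *Synpo*, an actin-associated protein, and *Tpm1*, a tropomyosin, fell with log2 fold changes of -0.67 and -0.66, *Tpm1* from 535 ± 43.8 to 338 ± 9.65 CPM (each SD, n = 3). Without LiCl replicates 1 and 3, 1 gene of the list was higher and 5 were lower.

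Of 18 genes whose products are described to bind a PDLIM or FHL protein, 6 rose, 4 fell and 8 did not pass. Their median log2 fold change was 0.06. These are 33.3% higher and 22.2% lower, against 21.1% and 22.4% over all tested genes, so the lower share was near that of all genes. *Ret*, the receptor bound by PDLIM7, fell by 0.88 on the log2 scale (SE 0.12; edgeR, adjusted p = 3.8e-04). *Stat4*, bound by PDLIM2, had a log2 fold change of -0.73 at 1.90 ± 0.28 CPM in the control (SD, n = 3), and *Prkd1*, bound by PDLIM5, one of -0.57. *Foxo1* and *Tbx5*, partners of FHL2 and PDLIM7, had log2 fold changes of 0.67 and 0.67, and *Mdm2*, bound by PDLIM7, one of 0.31. The calls of *Tbx5* and *Stat4* were each lost in 8 of the 14 alternatives in which they could be tested, with an adjusted p of 0.053 to 0.13 and 0.05 to 0.28, respectively. DESeq2 and 4 of the 6 fits with 1 sample left out were among these for both genes. *Ctnnb1*, whose product binds FHL2, fell from 1150 ± 17.2 to 865 ± 29.9 CPM (each SD, n = 3), a log2 fold change of -0.42.

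SRF drives cytoskeletal and smooth muscle genes together with its cofactors, to which FHL2 can bind. *Srf* rose from 62.2 ± 1.5 to 73.7 ± 2.28 CPM (each SD, n = 3), a log2 fold change of 0.24 (SE 0.05; edgeR, adjusted p = 0.0032), and *Myocd* did not pass, with 14.0 ± 4.23 and 14.2 ± 3.77 CPM (each SD, n = 3). Of the 15 SRF cofactors and smooth muscle targets, all tested, 1 rose, 8 fell and 6 did not pass, with a median of -0.18. *Actg2*, *Cnn1* and *Myl9*, genes of the contractile apparatus, fell with log2 fold changes of -1.45, -1.43 and -1.23. The number of lower genes was 5 with DESeq2, 5 without control replicate 3 and 5 without LiCl replicates 1 and 3. *Fhl1*, *Fhl2*, *Fhl3*, *Pdlim3* and *Pdlim7* were not called in the fit that called these.

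Several LIM genes are also known to respond to YAP and TEAD factors, which read out cell shape and tension. Of 20 YAP/TEAD targets, 1 rose, 10 fell and 9 did not pass, with a median log2 fold change of -0.29. *Ccn2*, a secreted matrix-associated protein, fell from 23.9 ± 1.90 to 7.57 ± 1.85 CPM (each SD, n = 3), a log2 fold change of -1.66 (SE 0.16; edgeR, adjusted p = 5.0e-05). *F3*, tissue factor, and *Ccn1*, a relative of *Ccn2*, fell with log2 fold changes of -1.16 and -0.66, and *Fjx1* was the gene that rose, by 0.50. *Pdlim1* and *Pdlim4* went in the direction opposite to the median of this list and of the lists of actin scaffold and smooth muscle genes. *Pdlim2* and *Pdlim5*, with log2 fold changes of -0.75 and -0.39, went in the same direction as these medians. Nothing is read from this contrast, because the comparison was known when the genes and lists were chosen.

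**Figure D4:**
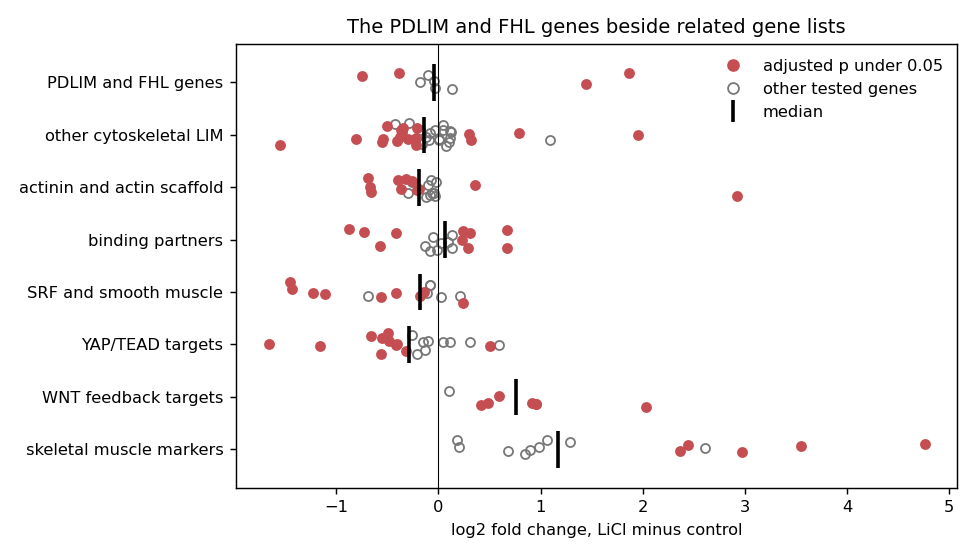
Log2 fold change of LiCl against control (horizontal axis) for every tested gene of the PDLIM and FHL set and of 7 lists, with genes at an adjusted p under 0.05 filled in red, the others open, and the median of each list as a black bar. The medians are -0.04 for the PDLIM and FHL genes, -0.14, -0.19, -0.18 and -0.29 for the other LIM, actin scaffold, smooth muscle and YAP/TEAD lists, and 0.76 for the WNT feedback genes.

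The genes most like *Pdlim1* over the 6 samples, by Pearson's r of log2 CPM among the 10715 genes outside the set that averaged 10 CPM or more, were *Ect2*, *Rrn3* and *Prr11*, with r of 0.9996, 0.9992 and 0.9990. *Ect2* and *Prr11*, a cytokinesis regulator and a gene expressed late in the cell cycle, had log2 fold changes of 1.4 and 1.69, and *Rrn3*, a factor of RNA polymerase I, one of 0.33. For *Pdlim2*, the gene with the lowest log2 fold change of the set, these were *Copz2*, *Trib2* and *Ppp1r14a*, with r of 0.9979, 0.9974 and 0.9956 and log2 fold changes of -0.86, -0.54 and -0.72. The 6 samples form 2 groups, so r mostly reflects the difference between these, and 1522 and 521 genes, respectively, had an r above 0.95.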

How the data were processed

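The RNA was enriched for poly-A transcripts and sequenced from stranded libraries by a provider. The authors deposited raw counts per gene, made with featureCounts on GRCm39. The study's methods name HISAT2 as aligner, whereas the submitters' processing notes list STAR 2.7, fastp 0.23, featureCounts 2.0 and DESeq2 1.40. Annotation release and strand setting are not given in the sources used here. The authors also deposited FPKM per sample. Dividing counts by DESeq2's size factors and by these FPKM gave whole gene lengths (within 0.05 bases) for 100% of 18507 genes with more than 50 counts. Symbols were assigned by Ensembl identifier from a table of gene names (52073 of 56748 matched). In an annotation of GRCm38, *Mir6945* within *Pdlim7* was the only gene sharing exon sequence with the 9 genes.

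The main test was edgeR 4.0.16 under R 4.3.3, with filterByExpr, TMM factors, the quasi-likelihood F test and Benjamini-Hochberg adjustment over 18188 genes. The SE of a log2 fold change is its size divided by the root of F. Replicates were no copies of each other, with a chi-square of 5.51 to 13.2 per degree of freedom. As alternatives, DESeq2 1.42.0 was run, edgeR was repeated with RLE factors, unscaled library sizes, all genes, genes with 10 or more counts throughout, a replicate block and samples left out, and limma 3.58.1 was run on log2(FPKM + 1) and log2(FPKM + 0.1) of genes averaging 0.5 FPKM or more, or on log2(FPKM + 1) of all genes. The 9 genes and all lists were chosen with earlier results of these data known. Named were the 9 genes and, as relatives or direct background, *Ldb3*, *Fhl4*, *Fhl5*, the alpha-actinins, *Srf*, *Myocd*, *Axin2* and *Ctnnb1*. In 5 lists, up to 3 called genes with the largest and 3 with the smallest log2 fold change were named as well. These were the other LIM, actin scaffold, binding partner, SRF and YAP/TEAD lists. WNT feedback genes and cell type markers were mostly given as counts, medians or sums. Of the mesenchymal markers, *Col1a1* and *Col3a1*, the largest parts of the sum, and *Foxf1* and *Osr1*, which did not pass, were also named. For 3 against 3 samples an exact permutation test reaches 0.1 at best, so none was run for single genes.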

Additional observations from a re-analysis of the deposited data

How the results depend on the processing

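Over the 16 alternatives, the log2 fold change was 1.56 to 1.90 for *Pdlim1* and 1.33 to 1.51 for *Pdlim4*. It was -0.94 to -0.42 for *Pdlim2*, -0.44 to -0.33 for *Pdlim5* and -0.35 to -0.10 for *Fhl1*. The alternatives refit the same samples, and the genes were chosen with this comparison known. These ranges therefore describe the set and are not a test of it. The log2 fold change of genes near 0 reached 0.00 or turned its sign when a sample was left out. It reached 0.00 for *Pdlim3*, with a range of 0.00 to 0.21. The sign turned for *Fhl2* (-0.23 to 0.02), *Fhl3* (-0.08 to 0.03) and *Myocd* (-0.21 to 0.30). *Myocd* was also at -0.01 with library size only.

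Leaving out LiCl replicates 1 and 3 left 1 LiCl sample, assumed to vary like the others. Then 2014 genes were higher and 2117 lower at the adjusted p alone (3844 and 4071 with all samples), the lower LIM genes were 8, the actin scaffold had 1 higher and 5 lower, the SRF list 0 higher and 5 lower, and the skeletal muscle markers 1 higher instead of 5, while *Myog*, *Ldb3* and *Myocd* were at -0.85, -0.32 and -0.22. The number of muscle markers called was 14 without filter, 2 with at least 10 counts, 2 to 13 with a sample left out, and 1 with limma on either pseudocount. The lower genes of the SRF list numbered 5 with DESeq2 and 5 to 8 with a sample left out. On log2(FPKM + 1), 177 genes were higher and 141 lower beyond the fold threshold, and 1 scaffold gene was higher. Without filter these were 171, 139 and 1, with 4 scaffold and 5 SRF genes lower, 0 YAP/TEAD genes higher and 0 muscle markers higher. On log2(FPKM + 0.1), 430 genes were lower. Except where the construction shows it (fewer samples, other genes tested), the cause was not tested.

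The replicate numbers did not pair the samples (correlations of deviations 0.03, -0.09 and 0.10). With the replicate block, 478 genes were higher and 801 lower (498 and 835 without), and the calls on the 9 genes were 2 higher and 2 lower, as without it.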
